A study of Caenorhabditis elegans with 12 samples.

Results

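The 10 genes described here belong to the TGF-beta pathway of *Caenorhabditis elegans*: the ligand genes *dbl-1*, *daf-7* and *unc-129*, the receptor genes *sma-6* and *daf-4*, the Smad genes *sma-2*, *sma-3* and *sma-4*, the nuclear partner gene *sma-9* and the downstream gene *lon-1*. They were taken by name from the 45410 genes that each count file lists, and were chosen with earlier results of these data known. Counts over them are therefore a description. RNA was sequenced from mid-embryos of 4 groups of 3 libraries each. In experiment 1, wild type (N2, the laboratory strain) was run with *set-2(tm1630)*, which lacks 5′ sequence of the gene together with its start codon. In experiment 2, N2 was run again with *set-2(zr2012)*, in which a conserved arginine of the SET domain was replaced by tryptophan through Cas9 editing, and each mutant was compared with the N2 libraries of its own experiment. *set-2* encodes the main H3K4 methyltransferase of the embryo. Both mutants had been backcrossed, *set-2(tm1630)* more times than *set-2(zr2012)*. Animals of every group were grown at 20°C, with eggs held for 4 h after bleaching so that most had reached the comma stage.

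TGF-beta ligands are secreted proteins that bring together a type I and a type II receptor kinase at the surface of the receiving cell. The activated type I receptor phosphorylates receptor Smads, which join a co-Smad and act on transcription in the nucleus. In the worm, DBL-1 signals through SMA-6, DAF-4 and the Smads SMA-2, SMA-3 and SMA-4 to set body size and pattern the male tail. DAF-7 signals through DAF-1 and the same DAF-4 receptor to prevent entry into the dauer larva, and UNC-129, which is made in dorsal body wall muscle, guides motor axons together with the netrin receptor UNC-5.

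Total counts per library lay between 14651380 (*set-2(tm1630)* replicate 2) and 53080992 (N2 of experiment 1, replicate 3), and 3 counts, taken as the floor, corresponded to 0.0590 to 0.211 CPM. CPM are counts per 1000000 counts of the library, here scaled over all 12 libraries by edgeR's TMM method. *set-2* was listed with 1, 11 and 44 counts in N2 of experiment 1, with 116, 12 and 97 in *set-2(tm1630)*, and with 9 to 17 in experiment 2, so its count was not lower in the mutants and did not check the labels. The start codon deletion and the substitution need not lower the transcript. N2 replicates 1 and 2 of experiment 2 differed least (chi-square per degree of freedom 2.23), which was still more than sampling noise, and were kept as 2 libraries. N2 replicate 3 stood apart from them, and the N2 libraries of experiment 1 differed most among themselves, with 457 to 811 on the same measure. By the study's methods, the 3 libraries of a genotype came from separate experiments, with N2 and mutant handled in parallel, and p-values measure the spread between them.

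Of the 10 genes, 8 were counted and passed the filter of at least 10 counts in at least 3 libraries in every comparison. *sma-4*, the gene of the co-Smad, and *sma-9*, the gene of a Schnurri-type zinc finger protein that works with the Smads, were listed at 0 in all 12 libraries. These zeros cannot be read as absence, since *act-4* (actin) and *lev-11* (tropomyosin) were listed at 0 in all libraries too. Among protein-coding genes that the RefSeq table of the WBcel235 assembly gives 1 transcript, 409 of 12986 (3.15%) were at 0 in all libraries. Among those with 2 or more, 1301 of 4083 (31.9%) were. In that table *sma-4* has 2 transcripts and *sma-9* has 11, whereas *dbl-1*, *daf-7*, *unc-129*, *sma-6* and *sma-3* have 1 each. *sma-2* with 2, *lon-1* with 3, *daf-4* with 5 and *set-2* with 3 were counted, and it is not known how much of these genes the counts cover. The reason for the zeros was not tested.

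In N2, the level of each gene varied more in experiment 1 than in experiment 2 for 7 of the 8 genes, *dbl-1* being the other. *daf-4* had a coefficient of variation of 58.6% in N2 of experiment 1 and 5.79% in N2 of experiment 2, and *lon-1* had 42.9% and 4.50%. In experiment 1 the mutant libraries were closer together than those of N2 for all 8 genes, with 5.01% for *daf-4* in *set-2(tm1630)*. In experiment 2 this did not hold for *daf-4* (6.13% in *set-2(zr2012)*) or *lon-1* (12.3%). No gene of the 8 passed the test between the N2 groups of the experiments (edgeR's quasi-likelihood test, adjusted p under 0.05, where 0.0242% of all genes did). At an unadjusted p under 0.05 (14% of all genes) there were 2, *dbl-1* with a log2 difference of 1.09 (higher in experiment 2, adjusted p = 0.324) and *lon-1* with -1.23 (lower in experiment 2, adjusted p = 0.295), and the DESeq2 Wald test called 0 of the 8. The CPM ranges of the N2 groups did not overlap for 3 of the 8, *daf-7*, *sma-2* and *lon-1*, where 20.2% of all genes tested were apart, 10% higher and 10.2% lower in experiment 2.

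**Figure D1:**
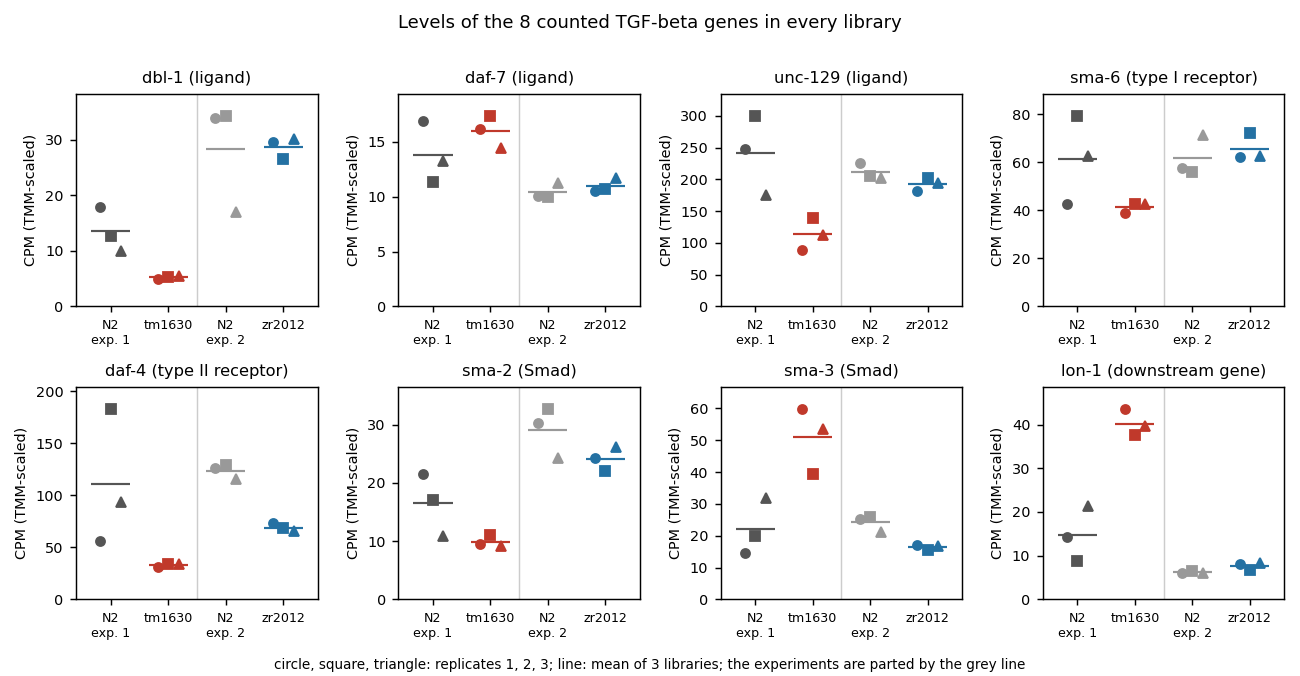
Each panel plots the level of 1 gene in CPM (TMM-scaled over all 12 libraries, linear axis from 0) for the 4 groups, with circles, squares and triangles for replicates 1, 2 and 3 and a line at the mean of 3 libraries. In *set-2(tm1630)*, *dbl-1*, *unc-129* and *daf-4* lie below and *sma-3* and *lon-1* above every N2 library of experiment 1, and in *set-2(zr2012)* *daf-4* and *sma-3* lie below every N2 library of experiment 2.

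In the libraries labelled *set-2(tm1630)*, the ligand genes *dbl-1* and *unc-129* and the type II receptor gene *daf-4* were downregulated, 2.57-fold, 2.109-fold and 3.29-fold. The receptor Smad gene *sma-3* and *lon-1*, whose product is a secreted protein that limits body length, were upregulated, 2.32-fold and 2.73-fold. *daf-7*, *sma-6* and *sma-2* did not pass the test. Thus 5 of the 8 genes tested were called, 3 lower and 2 higher, where 30.4% of all 16332 genes tested were called (edgeR's quasi-likelihood test, Benjamini-Hochberg adjustment, two-sided). The same 5 genes were those whose libraries did not overlap between the groups, against 50.4% of all genes (25.4% higher and 25% lower). The median log2 fold change was -0.64 for the 8 genes and -0.21 for all genes tested.

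Among the ligands, *dbl-1*, the neuronally expressed ligand of the body size route, was at 17.9, 12.6 and 9.95 CPM in N2 and at 4.91, 5.35 and 5.43 CPM in *set-2(tm1630)*. All 3 mutant libraries were below the lowest N2 library. The log2 fold change was -1.36 (standard error 0.37, adjusted p = 0.0275, edgeR's quasi-likelihood test). *dbl-1* shares sequence span with T25F10.4 in the RefSeq table, and as the library kit does not mark strand the reads of the pair may not be fully separable. T25F10.4 itself had a log2 fold change of -0.74 (adjusted p = 0.283) and ranges that overlapped. *unc-129*, the axon guidance ligand, was at 248, 299 and 175 CPM in N2 and at 88.1, 139.95 and 113 CPM in the mutant. The groups did not overlap, and the log2 fold change was -1.08 (standard error 0.34, adjusted p = 0.0448). *daf-7*, the dauer ligand, was at 16.9, 11.4 and 13.3 CPM in N2 and at 16.1, 17.3 and 14.4 CPM in the mutant. These ranges overlapped, and the log2 fold change of 0.21 had a 95% confidence interval of -0.51 to 0.94 (adjusted p = 0.624).

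Of the receptors, *daf-4*, the type II receptor gene that the body size and the dauer routes share, was at 56.5, 183 and 93.4 CPM in N2 and at 31.4, 34.3 and 34.4 CPM in *set-2(tm1630)*. N2 replicate 2 was far above the other N2 libraries, and all mutant libraries were below all of N2. The log2 fold change was -1.72 (standard error 0.43, adjusted p = 0.0225), and -1.17 without N2 replicate 2. In the RefSeq table the span of *daf-4* holds the non-coding gene C05D2.11, which was listed at 35.1, 106 and 21.6 CPM in N2 and at 9.84, 13.0 and 12.8 CPM in the mutant. C05D2.11 was called lower as well, with a log2 fold change of -2.18 (adjusted p = 0.0262), and the reads of the pair may not be fully separable. *sma-6*, the type I receptor gene of the body size route, was at 42.6, 79.1 and 62.5 CPM in N2 and at 38.9, 42.5 and 42.8 CPM in the mutant. N2 replicate 1 lay among the mutant libraries, and the log2 fold change was -0.56 (95% confidence interval -1.25 to 0.13, adjusted p = 0.184).

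The receptor Smad genes differed from each other in direction. *sma-3* was at 14.7, 19.8 and 31.8 CPM in N2 and at 59.7, 39.4 and 53.6 CPM in *set-2(tm1630)*, with every mutant library above every N2 library. Its log2 fold change was 1.22 (standard error 0.36, adjusted p = 0.0367). *sma-2* was at 21.5, 17.1 and 10.8 CPM in N2 and at 9.51, 10.99 and 9.23 CPM in the mutant, where N2 replicate 3 lay among the mutant libraries. Its log2 fold change was -0.73 (95% confidence interval -1.56 to 0.11, adjusted p = 0.155). In the RefSeq table the span of *sma-2* overlaps those of other genes, so its counts carry the same limit as those of *daf-4*. *lon-1* was at 14.3, 8.74 and 21.4 CPM in N2 and at 43.5, 37.7 and 39.6 CPM in the mutant. The groups did not overlap, and the log2 fold change was 1.45 (standard error 0.37, adjusted p = 0.0243).

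The calls in *set-2(tm1630)* rested on having all 3 mutant libraries. Without any 1 of mutant replicates 1, 2 or 3, 0 of the 8 genes were called, while between 747 and 938 genes of all were. The directions of the 5 genes did not change, and their log2 fold changes ran from -1.55 to -1.10 for *dbl-1*, -1.27 to -0.89 for *unc-129*, -2.04 to -1.17 for *daf-4*, 1.002 to 1.56 for *sma-3* and 1.17 to 1.80 for *lon-1* when each of the 6 libraries was left out in turn. Without N2 replicate 1, 4 genes were called, with *unc-129* and *sma-3* lost and *sma-6* gained. Without N2 replicate 2, 3 genes were called, and *unc-129* and *sma-3* were lost. Without N2 replicate 3, *sma-2* was called in addition to the 5, and 7857 genes of all were called. *unc-129* also lost its call with DESeq2's size factors in edgeR (adjusted p = 0.0550), and *sma-3* without the count filter (adjusted p = 0.0545).

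**Figure D2:**
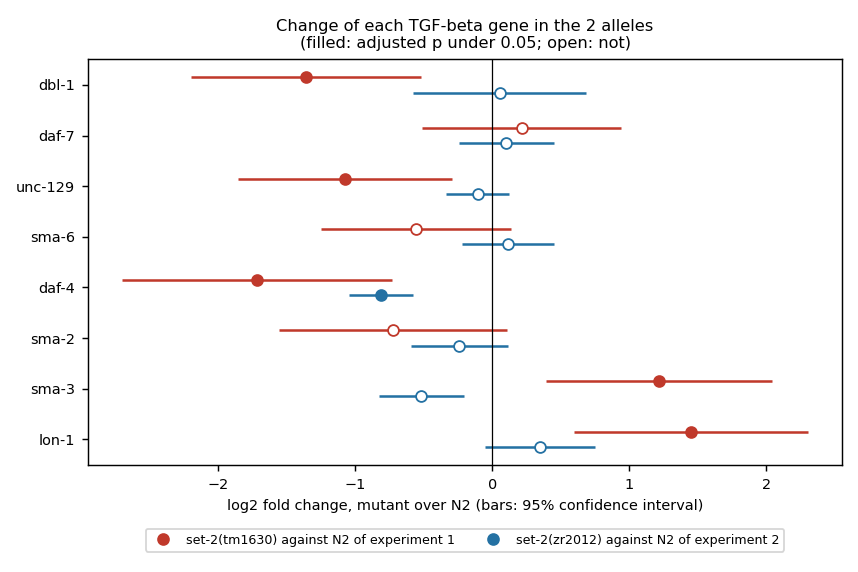
Log2 fold change of each gene on the horizontal axis, mutant over N2 of the same experiment, with the 95% confidence interval as a bar, for *set-2(tm1630)* (red) and *set-2(zr2012)* (blue). Filled points passed an adjusted p of 0.05. *daf-4* is filled on the negative side in both alleles, and *sma-3* lies at 1.22 in the deletion and at -0.52 in the substitution.

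In the libraries labelled *set-2(zr2012)*, *daf-4* was downregulated 1.75-fold and was the gene of the 8 that passed the test, against 10.4% of all 16892 genes tested. *sma-3* lay below all N2 libraries of experiment 2 and missed the threshold. The median log2 fold change of the 8 genes was -0.03, and that of all genes tested was -0.08. The groups did not overlap for 3 of the 8 genes, *daf-4* and *sma-3* on the lower side and *lon-1* on the higher, against 37.5% of all genes (18.3% higher and 19.2% lower).

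*daf-4* was at 126, 128.97 and 115 CPM in N2 of experiment 2 and at 73.7, 68.2 and 65.4 CPM in *set-2(zr2012)*. The groups were apart by more than the range within either, and the log2 fold change was -0.81 (standard error 0.0971, adjusted p = 0.00980, edgeR's quasi-likelihood test). C05D2.11 was at 60.7, 58.9 and 72.8 CPM in N2 and at 45.9, 44.9 and 49.2 CPM in the mutant, lower in every library, with a log2 fold change of -0.43 (adjusted p = 0.0775). *sma-3* was at 25.2, 25.99 and 21.3 CPM in N2 and at 17.2, 15.6 and 16.9 CPM in the mutant. Its log2 fold change was -0.52 (standard error 0.13, adjusted p = 0.0526), and the DESeq2 Wald test called it (adjusted p = 0.00708).

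*lon-1* was at 6.07, 6.50 and 5.97 CPM in N2 of experiment 2 and at 8.20, 6.63 and 8.34 CPM in *set-2(zr2012)*. The mutant libraries were above N2, replicate 2 by a small margin, and the log2 fold change was 0.35 (95% confidence interval -0.05 to 0.75, adjusted p = 0.214). *sma-2* was at 30.3, 32.6 and 24.3 CPM in N2 and at 24.3, 22.01 and 26.1 CPM in the mutant, and these ranges overlapped, with a log2 fold change of -0.24 (adjusted p = 0.307). The ligand genes were close to N2. *dbl-1* was at 33.9, 34.3 and 17.1 CPM in N2 and at 29.7, 26.5 and 30.2 CPM in the mutant, where N2 replicate 3 was at about the level that N2 had in experiment 1. The log2 fold change of *dbl-1* was 0.05 (95% confidence interval -0.58 to 0.68). Those of *unc-129* and *daf-7* were -0.11 (-0.33 to 0.12) and 0.10 (-0.24 to 0.45), and *sma-6* had 0.11 (-0.22 to 0.45), none of them called.

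A single N2 library decided much of this comparison. Without N2 replicate 3 of experiment 2, 10468 genes of all were called, against 1765 of the 16892 tested with it. Most genes were thus called in that fit, and the 5 called of the 8 are not set apart by it. *daf-4* (log2 fold change -0.85), *sma-3* (-0.59), *sma-2* (-0.34) and *dbl-1* (-0.21) were lower and *sma-6* (0.25) higher. The sign of *dbl-1* was thus reversed without that library. Without any 1 of the other 5 libraries (N2 replicates 1 and 2, mutant replicates 1, 2 and 3) 0 of the 8 genes were called, and *daf-4* had an adjusted p of 0.0529 to 0.0950 and a log2 fold change of -0.85 to -0.76. With all 12 libraries in 1 fit, which applies the larger spread of experiment 1, *daf-4* had a log2 fold change of -0.84 and an adjusted p of 0.255.

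An interaction term fitted to the 12 libraries together tested whether the alleles differed. Of the 8 genes, 2 passed, where 23.4% of all genes did, and 4 had an unadjusted p under 0.05, where 38.3% of all genes did. The change of *sma-3* in *set-2(zr2012)* was lower than that in *set-2(tm1630)* by a log2 difference of -1.75 (standard error 0.40, adjusted p = 0.0107, edgeR's quasi-likelihood test), with a rise in the deletion and levels below N2 in the substitution. For *dbl-1* the difference was 1.39 (standard error 0.43, adjusted p = 0.0345), with a fall in the deletion and a log2 fold change near 0 in the substitution. *sma-3* passed with each of the 12 libraries left out in turn (adjusted p up to 0.0332). *dbl-1* passed in 5 of these 12 fits, and lost its call without N2 replicate 1 of experiment 1 or any 1 mutant library of either allele (adjusted p of 0.0501 to 0.0950).

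The other genes did not pass in this test, and their intervals remained wide. *unc-129* had a difference of 0.95 (95% confidence interval 0.20 to 1.71, adjusted p = 0.0652) and *lon-1* of -1.12 (-2.02 to -0.22, adjusted p = 0.0677). *daf-4*, which was lower in both alleles, had a difference of 0.89 (-0.11 to 1.90, adjusted p = 0.174). For *daf-7* the difference was -0.13 (-0.83 to 0.58), for *sma-2* 0.46 (-0.34 to 1.27) and for *sma-6* 0.66 (-0.06 to 1.38). Allele, extent of backcrossing and experiment cannot be told apart in this test.

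The ratio of the counts of a pair of genes within a library does not depend on scaling. 3 such ratios were chosen after the values had been seen, and are given as a description. *sma-3* to *sma-2*, the receptor Smad pair, was 0.685, 1.15 and 2.94 in N2 of experiment 1 and 6.28, 3.59 and 5.80 in *set-2(tm1630)*. In experiment 2 it was 0.831, 0.797 and 0.874 in N2 and 0.706, 0.707 and 0.648 in *set-2(zr2012)*. Against N2 of its own experiment, the ratio was thus above every library in the deletion and below every library in the substitution. *daf-4* to *sma-6*, the receptor pair of the body size route, was 1.32, 2.31 and 1.49 in N2 and 0.808, 0.808 and 0.803 in *set-2(tm1630)*. In experiment 2 this ratio was 2.19, 2.30 and 1.62 in N2 and 1.19, 0.946 and 1.05 in *set-2(zr2012)*, so that it was below every N2 library of its experiment in both alleles. *lon-1* to *dbl-1* was 0.798, 0.691 and 2.15 in N2 and 8.86, 7.04 and 7.28 in *set-2(tm1630)*. In experiment 2 the ratio overlapped, with 0.179, 0.190 and 0.350 in N2 and 0.276, 0.250 and 0.276 in *set-2(zr2012)*. With 3 libraries on each side, the smallest two-sided p of an exact permutation test is 0.1, so none is given.

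**Figure D3:**
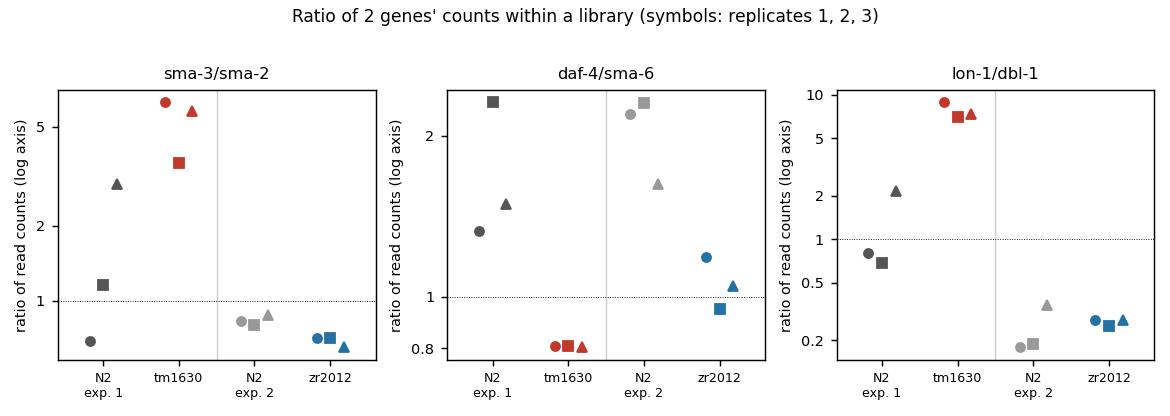
Ratio of the read counts of 2 genes in the same library, on a log axis, for the 4 groups, with circles, squares and triangles for replicates 1, 2 and 3. The ratio of *daf-4* to *sma-6* is 0.803 to 0.808 in *set-2(tm1630)* and 0.946 to 1.19 in *set-2(zr2012)*, below the N2 libraries beside them.

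Across the 12 libraries, the log2 CPM of *dbl-1* and *sma-2* moved together most closely of the 28 pairs of genes (Pearson r = 0.96), with r = 0.92 in experiment 1 and 0.59 in experiment 2, 6 libraries each. *sma-6* and *daf-4* had r = 0.81 over the 12 libraries, 0.96 in experiment 1 and -0.45 in experiment 2. *sma-3* and *lon-1* had r = 0.81, 0.90 and -0.63, and *dbl-1* and *lon-1* had r = -0.92, -0.90 and 0.33. *sma-2* and *sma-3* had r = -0.97 in experiment 1 and 0.87 in experiment 2. The sign was the same in both experiments for 15 of the 28 pairs. Libraries share their group, their stage and their experiment, so these values describe the libraries and no more.

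A list of 29 further genes, which counts netrin genes of the UNC-129 route with the pathway, was chosen with earlier results of these data known. Its counts in both alleles are therefore a description. In *set-2(tm1630)*, 6 of the 20 tested were called lower and 0 higher, where 16.0% of all genes were called lower and 14.4% higher. At an unadjusted p under 0.05 (44.8% of all genes), 11 were lower and 1 higher, and the DESeq2 Wald test called 7 lower and 1 higher. Their median log2 fold change was -1.01. The 6 were *drag-1*, the gene of a co-receptor of the body size route, with a log2 fold change of -1.73 (adjusted p = 0.0302, edgeR's quasi-likelihood test), *daf-5*, a Sno/Ski-type partner of the dauer route Smads, with -1.59 (adjusted p = 0.0265), *mab-31*, a nuclear factor of the body size route, with -1.43 (adjusted p = 0.0301), and *kin-29*, a kinase gene that affects body size, with -1.48 (adjusted p = 0.0158). The netrin gene *unc-6* had -2.22 (adjusted p = 0.0103) and the netrin receptor gene *unc-5* -1.41 (adjusted p = 0.0332), and both act in the axon guidance route of UNC-129. These calls moved with the libraries used. Without mutant replicate 1 or 3, 0 of the pathway genes were called, without mutant replicate 2 only *unc-6* was, and without N2 replicate 2 only *kin-29* and *unc-6* were. Without N2 replicate 1, 8 were lower and 1 higher. Without N2 replicate 3, 9 were lower and 1 higher, where 7857 genes of all were called. With all 12 libraries in 1 fit, 10 were lower and 1 higher, where 8124 genes of all were called.

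In *set-2(zr2012)*, 21 of the 29 genes were tested, and 5 were called lower and 0 higher, where 4.74% of all genes were called lower and 5.71% higher. At an unadjusted p under 0.05 (30.4% of all genes), 8 were lower and 0 higher, and the DESeq2 Wald test called 6 lower and 0 higher. Their median log2 fold change was -0.23. The 5 were *daf-5* (log2 fold change -0.56, adjusted p = 0.0243), *daf-1*, the type I receptor gene of the dauer route (-0.44, adjusted p = 0.0340), *tsp-21*, a tetraspanin gene that promotes body size signalling (-0.68, adjusted p = 0.0330), the cuticle collagen gene *lon-3* (-0.82, adjusted p = 0.0286) and *unc-6* (-0.41, adjusted p = 0.0364). *daf-5* and *unc-6* were called lower in both alleles, and the share of all genes called lower in both was not determined. The 5 calls in *set-2(zr2012)* were all lost with all 12 libraries in 1 fit, and without any 1 of N2 replicates 1 and 2 or mutant replicates 1, 2 and 3. Without N2 replicate 3, 11 genes were lower and 2 higher, in a fit that called 10468 genes of all, most of those tested. Without the count filter 3 were lower, with *daf-1* and *unc-6* lost. Between the alleles, 4 of 21 genes tested were called higher and 1 lower, where 11.7% and 11.8% of all genes were. In either direction 23.4% of all 17903 genes were called, so the count does not set these genes apart. *drag-1*, *kin-29*, *unc-5* and *unc-6* differed with values of 1.85, 1.23, 1.77 and 1.80 (adjusted p of 0.0135 to 0.0236, edgeR's quasi-likelihood test). *tsp-12*, another tetraspanin gene, differed with -0.96 (adjusted p = 0.0179). Without the count filter, *kin-29* and *tsp-12* lost this call. *unc-5* and *unc-6* passed with each of the 12 libraries left out in turn, *tsp-12* in all but that without *set-2(zr2012)* replicate 3. The number called ranged from 2 to 7 higher and 0 to 2 lower, in fits that called 2357 to 7293 genes of all. The lowest, 2 higher, was without replicate 1 or 3 of *set-2(zr2012)*, and the highest, 7, without N2 replicate 1 or 3 of experiment 1. Listed at 0 in all libraries were *daf-14*, *adt-2*, *tsp-14*, *daf-12*, *daf-9* and *fat-6*, and *daf-3* and *sma-10* had too few counts to test in either allele, as had *tig-3* in *set-2(tm1630)*. In the RefSeq table the spans of *mab-31*, *daf-1*, *lon-3*, *unc-5* and *unc-6* overlap those of other genes, and their counts carry the same limit as those of *daf-4*.

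Markers of other stages and cell types moved with some of these groups. The summed level of 12 early embryo and maternal genes was 30.9, 28.4 and 123 CPM in N2 of experiment 1 and 1151, 879 and 1066 CPM in *set-2(tm1630)*. There 9 of the 10 tested were called higher, and *pie-1* and *mex-3* were listed at 0 throughout. Of all genes tested in *set-2(tm1630)*, 14.4% were called higher and 16.0% lower. Of 10 neuron markers, 4 of the 7 tested were lower, with 653 to 894 CPM in N2 and 520 to 544 CPM in the mutant (*unc-119*, *unc-31* and *egl-3* at 0). Of 10 body wall muscle markers, 4 of the 6 tested were lower, with 5773 to 7474 CPM and 2339 to 2687 CPM (*unc-15*, *lev-11* and *tnt-2* at 0). Epidermis markers had 0 of 5 called, but all 5 had negative log2 fold changes. Their sum was 1338 to 4009 CPM in N2 and 708 to 1220 CPM in the mutant, without overlap. Intestine markers had 1 higher (*end-1*) and 1 lower (*ges-1*) of 8, with sums of 1400 to 3599 CPM and 1322 to 1604 CPM. Of these lists, *elt-1*, *elt-3*, *dpy-10*, *nhr-23* and *elt-7* were at 0. In whole embryos, fewer cells of a type and less RNA per cell cannot be told apart, and the part that stage and cell makeup had in the values of the TGF-beta genes was not tested.

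In experiment 2 the early embryo and maternal sum was 82.4, 92.6 and 532 CPM in N2 and 117, 126 and 99.9 CPM in *set-2(zr2012)*, with 0 of 10 called in either direction. Neuron, muscle and intestine markers had 0 called, and 1 of 6 epidermis markers was lower. Of all genes tested in *set-2(zr2012)*, 5.71% were called higher and 4.74% lower. N2 replicate 3 also had the lowest neuron sum (739 CPM) and muscle sum (5705 CPM) of that experiment. Its early embryo sum was the highest, and it had the lowest *dbl-1* (17.1 CPM), *unc-129* (202 CPM) and *daf-4* (115 CPM) of its group. Its *sma-3* (21.3 CPM) and *lon-1* (5.97 CPM) were also the lowest of the group. In experiment 1, N2 replicate 3 had the highest sum of its group, the lowest *dbl-1* and *unc-129* and the highest *sma-3* and *lon-1*. Its *daf-4* (93.4 CPM) lay between those of the other N2 libraries. A link of these levels to the sum was not tested. The *daf-4* level of *set-2(zr2012)* was below N2 with and without N2 replicate 3.

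**Figure D4:**
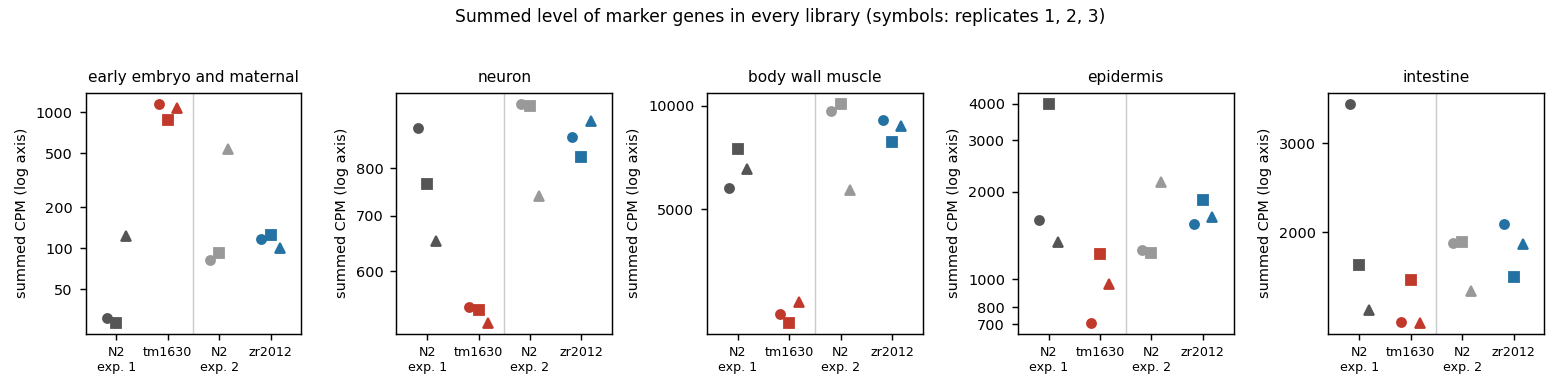
Summed CPM of the marker genes of 5 lists in each library, on log axes, with circles, squares and triangles for replicates 1, 2 and 3. The early embryo and maternal sum is 879 to 1151 CPM in *set-2(tm1630)* against 28.4 to 123 CPM in N2 of experiment 1, and replicate 3 of N2 in experiment 2 stands at 532 CPM.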

How the data were processed

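RNA of 12 mid-embryo libraries was prepared with a kit that does not mark strand. The authors mapped the reads to WS220 (ce10) and deposited raw counts per gene, 1 file per library, without normalization. The submitters' processing notes name Trimmomatic 0.36.0, HTSeq 0.9.1 and DESeq2 2.1.8.3, and the aligner and the strand setting are not given in the sources used here. *set-2(tm1630)* replicate 3 was assigned by its title.

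Tests were run on these counts with edgeR 4.0.16 (R 4.3.3). A gene entered a comparison with 10 or more counts in 3 or more of its libraries. TMM scaling was followed by the quasi-likelihood test without a block, Benjamini-Hochberg adjustment over all genes tested and a threshold of 0.05. Standard errors were taken from the test statistic. Total counts of 14651380 to 53080992 set the precision, and floors cover counting error only, since PCR duplicates were not marked by molecular identifiers. Levels were not compared between genes, as no exon lengths of the build were used. No coordinates or sequences are given for the same reason. DESeq2 1.42.0, other filters and scaling, a block, all libraries in 1 fit and each replicate left out were alternatives. The test was checked on simulated counts with the same dispersion in every library, so the check did not cover the unequal spread of these groups. The members, the 29 other pathway genes and the marker lists were chosen with earlier results of these data known. All members are named, and other pathway genes where they passed the threshold or could not be tested. RefSeq (WBcel235) gave transcript numbers and overlapping genes. It matched all 10 members.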

Additional observations from a re-analysis of the deposited data

Results flagged for a closer look

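2 of the 8 tested genes differed between the alleles in the interaction test over 12 libraries (edgeR's quasi-likelihood test). Of all 17903 genes tested, 23.4% did, so the count does not set the 8 genes apart. For *sma-3* the change in *set-2(zr2012)* minus that in *set-2(tm1630)* was -1.75 on the log2 scale (standard error 0.40, adjusted p = 0.0107). The level of *sma-3* was above every N2 library of experiment 1 in 3 of 3 libraries of *set-2(tm1630)*, where 25.4% of all genes were. It was below every N2 library of experiment 2 in 3 of 3 of *set-2(zr2012)*, where 19.2% of all genes were. For *dbl-1* the difference was 1.39 (standard error 0.43, adjusted p = 0.0345), with 3 of 3 libraries of *set-2(tm1630)* below every N2 library and those of *set-2(zr2012)* within the range of N2. The alleles were run in separate experiments.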

How the results depend on the processing

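Without the filter on counts, 4 of the 8 genes were called in *set-2(tm1630)*, with DESeq2's size factors 4, and with the DESeq2 Wald test 5. A block for the replicate number left 2 (*daf-4* and *lon-1*). The same-numbered libraries did not deviate together (r across genes of -0.24 to 0.04 for 6 pairs, and -0.24 to 0.31 for the others, with 1 of 12 libraries closest to its own number), so the numbers were not taken to pair the samples. In *set-2(zr2012)*, 0 of the 8 were called with the block and 0 with all 12 libraries in 1 fit, and 2 by DESeq2. Between the alleles, 1 was called with the block, 1 without a count filter and 4 by DESeq2. Of the other pathway genes, the block left 2 lower in *set-2(tm1630)* (*kin-29* and *unc-6*), 0 in *set-2(zr2012)*, and 1 between the alleles (*unc-6*). Over all genes, the counts were 8124 of *set-2(tm1630)* (4961 in the test reported) with all 12 libraries in 1 fit, and for *set-2(zr2012)* (1765 reported) 3252 by DESeq2, 40 with the block and 248 with all 12 libraries. They were 1858 for the difference between alleles (4198 reported) with the block, and for N2 against N2 (4 reported) 618 by DESeq2, 248 without a count filter and 18 with the block.

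Leaving out 1 replicate moved the genes called among the 8 to between 0 and 6 in *set-2(tm1630)*, 0 and 5 in *set-2(zr2012)*, and 1 and 4 between alleles. Over all genes the ranges were 747 to 7857, 29 to 10468, 2357 to 7293, and 0 to 7 for N2 against N2. Values near 0 changed sign. *dbl-1* in *set-2(zr2012)* ran from -0.21 to 0.20. Between the N2 groups *sma-6* (0.05) ran from -0.17 to 0.15, *daf-4* from -0.12 to 0.64 and *sma-3* from -0.083 to 0.50, and *sma-6* was -0.0081 with DESeq2's size factors, -0.0082 in DESeq2 and -0.026 without a filter. Causes were not tested. Levels per kilobase were not run. At the depth of the smallest library, 3 counts were 0.211 CPM, and all 8 genes were above it.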
